A study of Glycine max with 9 samples.

Results

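R02-6268F is a soybean line that its submitters label as high in oil. The genes described here are those whose transcript level in R02-6268F seeds stood apart from the other 8 lines of the study. A gene was raised where its Z-score in R02-6268F was 2 or more, and reduced where it was -2 or less. The Z-score is the line's log2 expression less the mean of the 9 lines, divided by the standard deviation (SD) of the 9 lines. By this rule 169 of 33779 genes were raised, a share of 0.50%, and 99 were reduced, a share of 0.293%. Together the 268 members made up 0.793% of the table. The members were chosen by these Z-scores, so the Z-scores describe them and test nothing.

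All 9 lines were grown in a growth chamber, and RNA of whole seeds at mid-maturation was sequenced with 1 library for each line. R05-4256, R05-591 and R08-1450 carry the same high-oil label as R02-6268F, R95-1705 is labelled high in protein, and Jack has oil like that of commodity soybean. M23 is labelled mid oleic, FAM94 high stearic, and N0304-303-3 low palmitic, mid oleic and low linolenic. No line was treated, and no line has a second library. A difference between R02-6268F and the other lines is therefore a difference between single libraries, with no replicate check and no p-value. In a whole seed, fewer cells of a type and less RNA per cell cannot be told apart.

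At mid-maturation the cotyledons of a soybean seed fill with storage protein and with oil. Glycinins and conglycinins are laid down in protein storage vacuoles, and triacylglycerol is packed in oil bodies coated by oleosins and caleosins. Fatty acids are made in the plastid and then desaturated there or in the endoplasmic reticulum, where the FAD enzymes act on oleic and linoleic acid. Sucrose, nitrogen, sulfur and phosphate for this filling are imported from the mother plant through membrane transporters.

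No storage gene stood apart in R02-6268F by the cutoff. The label of the tissue was borne out by the mean levels, which reached 33706 FPKM (mapped fragments scaled by transcript length and by the library's total) for the 2S albumin gene Glyma13g36400. None of the 20 storage protein genes, 7 oil body genes, 31 lipid enzyme genes, 27 seed maturation genes or 10 protease inhibitor genes found by their annotation was raised or reduced. Over all genes 0.793% were raised or reduced, so lists this short could hold no call without differing from other genes. Of the listed genes, 10, 7, 4, 18 and 9 were among the 100 genes of highest level. The other names came mostly from genes past the cutoff in some line. The squares of a gene's 9 Z-scores sum to 8, so a gene past the cutoff in another line could not also pass it in R02-6268F. For such genes the absence of a call was fixed in advance. The median Z-scores of these lists in R02-6268F were -0.10, 0.21, 0.36, -0.28 and -0.20, beside 0.03 over all genes. Of the seed maturation genes 4 of 27, or 14.8%, had a Z-score above 0, beside 51.4% of all genes. In the 100 genes of highest level, which hold 18 of these 27, the share above 0 was 34%. Among those 18 genes 2 were above 0. Among the storage proteins of highest level, the glycinins Gy1, Gy4 and Gy5 had Z-scores of 0.01, 0.20 and 0.19, the glycinin Gy2 had -0.96, and Glyma13g36400 had 0.34. The other 2S albumin gene, Glyma12g34160, was at 0.50. The conglycinin genes Glyma10g39150, Glyma10g03390, Glyma02g16440 and Glyma10g39170 were at -0.01, -0.14, -0.39 and -0.75.

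Genes of the oil body and of fatty acid desaturation also stayed well inside the cutoff. The oleosin genes Glyma20g33850, Glyma05g08880, Glyma19g13060, Glyma10g33760, Glyma04g08220 and Glyma16g07800 had Z-scores of 0.74, 0.36, 0.29, 0.21, 0.01 and -0.11, and the caleosin gene Glyma10g33350 had -0.22. FAD2-1B, which makes linoleic from oleic acid in the seed, had 0.51. The linoleate desaturase genes FAD3A, FAD3B and FAD3C had 0.79, 0.04 and 0.64. R02-6268F ranked between 2 and 5 from the highest line in these 4 desaturase genes, so other lines lay on either side of it in each.

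In the 100 genes of highest level, no gene was raised or reduced in R02-6268F. Over all genes 0.793% were raised or reduced in R02-6268F, so 100 genes could hold no call without differing from other genes. Most of the other lines had no call among these 100 genes either, and R05-591 had the most, 13. Genes called in another line could not also pass the cutoff in R02-6268F. In R02-6268F the Z-scores of the 100 genes ran from -1.64 to 1.23 with a median of -0.19. The lowest were the tonoplast aquaporin Glyma09g28930 at -1.64, the aquaporin-like Glyma16g33530 at -1.58 and the gibberellin-regulated Glyma14g09620 at -1.41. Aquaporins are water channels, and in the first and second of these genes R02-6268F was the lowest of the 9 lines. The highest were the leginsulin gene Glyma13g26340, which encodes the small sulfur-rich albumin-1, at 1.23, the unannotated gene XLOC_005428 at 1.22 and the oleosin Glyma20g33850 at 0.74. R02-6268F had the highest leginsulin level of the 9 lines. The root-mean-square (RMS) Z-score over these 100 genes was 0.602 in R02-6268F, the lowest of the 9 lines, which otherwise ran from 0.685 in R05-4256 to 1.25 in R05-591.

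Over all genes, R02-6268F departed less from the gene mean than any other line. Its RMS Z-score was 0.787, beside 0.807 in R05-4256, 0.821 in M23, 0.824 in FAM94 and up to 1.29 in R08-1450. Its 268 members were the fewest of any line: R05-4256 had 177 raised (0.524%) and 137 reduced (0.406%), Jack had 693 (2.05%) and 785 (2.32%), and R08-1450 had 1812 (5.36%) and 1545 (4.57%). The raised shares were 0.604% in M23, 0.782% in R95-1705, 0.965% in N0304-303-3, 1.08% in FAM94 and 1.17% in R05-591. The reduced shares of the same lines were 0.343%, 1.16%, 0.639%, 0.246% and 0.764%. FAM94 alone had fewer reduced genes than R02-6268F, 83 against 99, and no line had fewer raised genes. In 79.2% of all genes R02-6268F lay within 1 SD of the gene mean. It was the lowest of the 9 lines in 2143 genes, or 6.34%, the smallest number of any line, and the highest in 2535 genes, or 7.50%. Without R08-1450, which holds the most called genes, the Z-scores recomputed over 8 lines left R02-6268F lowest at 0.809, next to M23 at 0.816. Among genes averaging 10 FPKM or more, R05-4256 was lower, at 0.749 against 0.761.

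**Figure D1:**
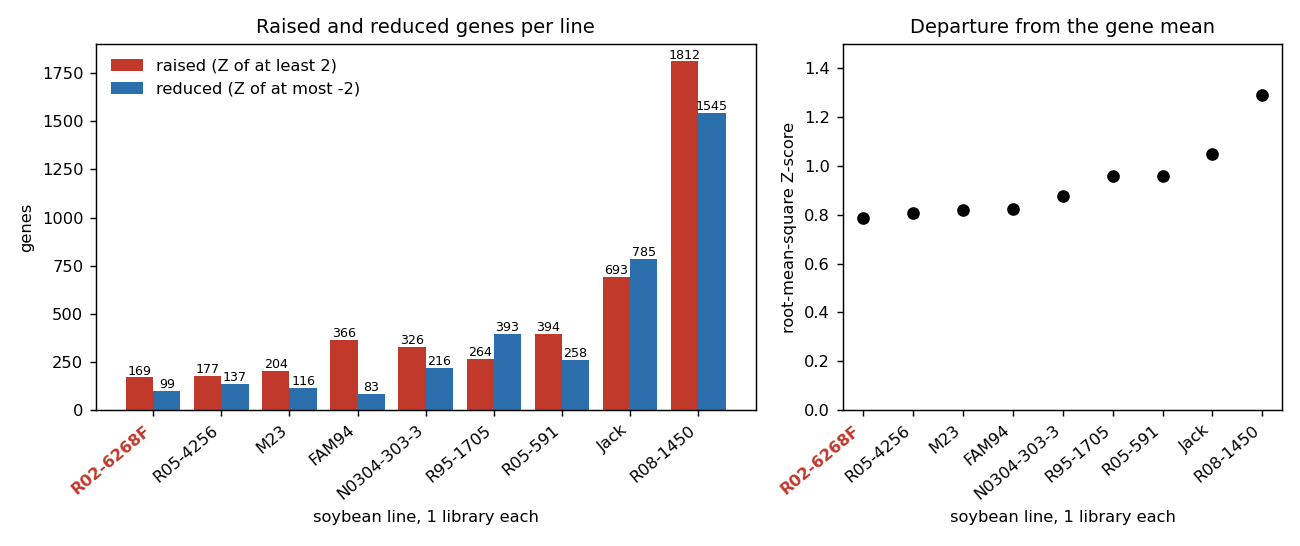
Left, how many genes were raised (red bars) or reduced (blue bars) in each of the 9 lines, with the count above each bar; right, the root-mean-square Z-score of each line over all 33779 genes (black points). Lines are ordered by the right-hand measure, and R02-6268F, with 169 raised and 99 reduced genes and a value of 0.787, comes first in it.

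Across all genes the Z-scores of R02-6268F ran most nearly parallel to those of R05-591 and M23. Pearson's r was 0.158 with R05-591, 0.125 with M23 and 0.0357 with FAM94. It was -0.0814 with Jack, -0.195 with R05-4256, -0.197 with N0304-303-3, -0.290 with R95-1705 and -0.292 with R08-1450. The 9 Z-scores of a gene sum to 0, so lines that were all equally unlike would have an r of -0.125. These are descriptions over 33779 genes of the same 9 libraries, and genes are not replicates. Of the lines that share the high-oil label, R05-591 was the most like R02-6268F by this measure and R08-1450 the least like it.

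No particular second line went with R02-6268F in most of its members. Among raised genes the next highest line was M23 in 34, R05-591 in 32 and FAM94 in 28, and the lowest line was R08-1450 in 38. Among reduced genes the next lowest line was R05-591 in 21, Jack in 16 and M23 in 16, and the highest line was R08-1450 in 22. R02-6268F was separated from the nearest line by a gap of at least 1 in Z-score in 149 raised genes, or 88.2%, and in 92 reduced genes, or 92.9%. The median gaps were 1.43 and 1.52. The largest Z-score that 9 values allow is 2.67. In size of Z-score, 66 of the 169 raised and 43 of the 99 reduced genes were below 2.1, and 18 and 6 were at 2.5 or more.

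At the cutoff itself, the nearest raised genes were XLOC_039118, which read 2.0007, and Glyma06g05890, a P-type ATPase gene, which read 2.0009. Just outside lay XLOC_022536 at 1.9993 and XLOC_004190 at 1.9960. The nearest reduced genes were XLOC_017981 at -2.0075 and XLOC_043611 at -2.0119, and just outside lay XLOC_008341 at -1.9968 and XLOC_026468 at -1.9954. Identifiers that begin with XLOC are the table's own, for spans that no table used here pairs with a gene model. Of the members, 39 raised and 31 reduced genes could be given a gene model, and 34 and 27 of these an annotation. The tables that give these names reach only chromosomes 1 to 5, part of 6 and the most abundant transcripts.

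Raised and reduced genes differed in level. The mean over the 9 lines, R02-6268F included, had a median of 1.37 FPKM in raised genes (quartiles 0.454 and 3.50) and 5.28 FPKM in reduced genes (quartiles 2.87 and 12.1), beside 3.53 FPKM over all genes (quartiles 1.33 and 8.67). Means below 1 FPKM were found in 76 of the 169 raised genes and in 5 of the 99 reduced genes. The share of genes that were raised was 1.67% below 0.5 FPKM, 0.806% from 0.5 to 1, 0.398% from 1 to 10, 0.194% from 10 to 100 and 0.163% from 100 FPKM upwards. The share that were reduced was 0.0381%, 0.101%, 0.327%, 0.402% and 0.326% in the same classes. The raised share thus fell with level in every step, and the reduced share rose up to the class from 10 to 100 FPKM. In 7 of the 9 lines the median mean of the raised genes was below that of the reduced genes, R02-6268F being 1 of these, and Jack and N0304-303-3 were the exceptions.

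**Figure D2:**
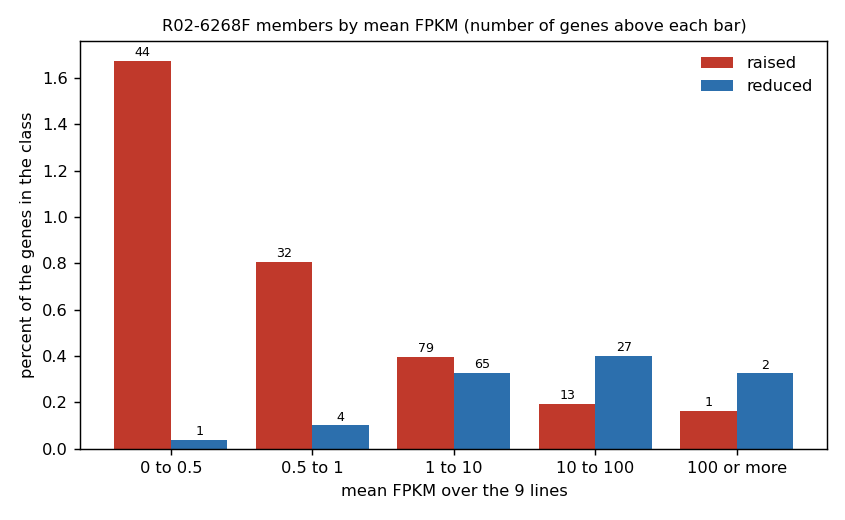
The percent of genes that were raised (red bars) or reduced (blue bars) in R02-6268F within 5 classes of mean FPKM over the 9 lines; the number above each bar is the number of genes. Raised genes made up 1.67% of the class below 0.5 FPKM and 0.163% of the highest class, while reduced genes made up 0.0381% and 0.326%.

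The number of lines in which a gene was not found moved with the line. Equal lowest Z-scores in 2 or more lines, which mark lines at 0 FPKM, occurred in 895 genes. R02-6268F was among the lines at 0 in 298 of them, or 33.3%, the fewest of any line, and the other lines ranged from 328 in R05-591 to 415 in R05-4256. The deposited table holds no read totals. The study describes the R02-6268F library as the most deeply sequenced of the 9 and that of R05-4256 as the shallowest, and the part of depth in the low-level raised genes was not tested. The median Z-score of R02-6268F was 0.12 in genes below 0.5 FPKM and -0.16 in genes from 100 FPKM upwards.

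Members also differed in the length of the genomic span from the first to the last base of the gene. The median span was 3677 bp in raised genes (quartiles 1770 and 5311), 4617 bp in reduced genes (quartiles 3265 and 6041) and 4125 bp over all genes (quartiles 2515.5 and 6316). Of the 96 genes shorter than 200 bp, 5 were raised, or 5.21%, and none was reduced. These 5 genes were at 0 FPKM in every other line. The class as a whole was not raised: its median Z-score in the line described here was -0.39. The lowest median of any other line in this class was -0.33. From 10 kb upwards 0.164% of genes were raised. Spans that 2 or more genes of the table share exactly held 5 raised genes, or 2.96%, and 5 reduced genes, or 5.05%, beside 5.61% of all genes.

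The members of which the most can be said are those in which at least 2 lines were at 0 FPKM, since the mean and the Z-scores then fix the FPKM of all 9 lines. This held for 23 raised genes and no reduced gene. In 8 of the 23 the other 8 lines were all at 0 FPKM, so that the transcript was listed in R02-6268F alone. R08-1450 had 13 such genes and Jack 9, M23 had 4, R95-1705 had 1 and each of the other 4 lines had 3. No fold change is given against lines that are all at 0.

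The highest of the 8 was XLOC_039020, a span of 105 bp on chromosome 14 from 11261717 to 11261821, which was at 3314 FPKM in R02-6268F and at 0 in every other line. It was also the most abundant raised gene, with a mean of 368 FPKM. XLOC_049497, 165 bp on chromosome 18 from 7859023, was at 142 FPKM, and XLOC_039037, 165 bp on chromosome 14 from 29307382, at 76.0 FPKM. Of the 8 genes, 5 were shorter than 200 bp, and these 5 were the 5 highest. FPKM divides by transcript length, so that few fragments on a very short span give a large value, and the number of fragments behind these values is not in the table.

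The other short ones lay side by side on chromosome 3. XLOC_008035 (170 bp, from 31631565 to 31631734) was at 26.8 FPKM and XLOC_008036 (195 bp, from 31635795 to 31635989) at 16.8 FPKM, 4060 bp apart, and both were at 0 in the other 8 lines. The genes next to them, XLOC_007233 and XLOC_008040, had R02-6268F Z-scores of -0.91 and -0.47. The 3 genes that follow XLOC_008036 were at 0 in at least 6 lines each and highest in R08-1450. R02-6268F was among the lines at 0 in the first of these, XLOC_008040, and above 0 in XLOC_008041 and XLOC_007235, with Z-scores of 0.59 and 0.90.

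A further pair, of ordinary gene length, lay on chromosome 14. XLOC_038644 (29595989 to 29600215) was at 5.66 FPKM and XLOC_038645 (29600417 to 29604184), which starts 201 bp further on, at 4.72 FPKM, with 0 in the 8 other lines. The gene before them had an R02-6268F Z-score of -0.27 and the gene after them 0.67. XLOC_039037 lies on the same chromosome about 0.3 Mb before, with 7 genes between, all with R02-6268F Z-scores from -0.95 to 0.65. The last of the 8 was XLOC_025233, 466 bp on chromosome 9 from 32137408, at 5.06 FPKM.

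In the other 15 genes with fixed FPKM, R02-6268F stood above at least 1 other line with a level above 0. On chromosome 8 the genes XLOC_021490 and XLOC_019648, which share the span from 12330333 to 12332102, were at 59.1 and 27.0 FPKM in R02-6268F. The next line was R05-591 for the first, at 0.82 FPKM, and for the second Jack, at 0.0635 FPKM, and R05-4256, at 0.0622 FPKM, were the only other lines above 0. How the reads of this span were divided between both entries is not given in the sources used here, so they count as 1 locus. XLOC_031957 on chromosome 12 was at 93.1 FPKM in R02-6268F, at 26.6 in N0304-303-3 and at 0 in the other 7 lines, a ratio of 3.50 between the highest lines. Glyma04g07740 was at 4.38 FPKM, with 0.40 in R05-591 and 0 in the others.

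Neighbouring pairs recurred in these genes. On chromosome 18, XLOC_047323 and XLOC_049518, 1820 bp apart, were at 11.9 and 5.68 FPKM in R02-6268F and at most at 0.40 FPKM in any other line. On chromosome 9, XLOC_023135 and XLOC_025225, 473 bp apart, were at 5.45 and 4.70 FPKM, against at most 0.27 FPKM elsewhere. On chromosome 2, Glyma02g08460 was at 12.2 FPKM, with 1.61 in R95-1705 and 0 in the other 7 lines, and XLOC_005404, 1097 bp further on, was at 5.64 FPKM, with at most 0.45 in another line. Including the pairs on chromosomes 3 and 14 and a further pair on chromosome 14 (XLOC_039019 and XLOC_038444, with Z-scores of 2.58 and 2.32), 6 pairs of adjacent raised genes with different spans held 12 of the 169 raised genes, or 7.10%. Among the raised genes of the other lines this share ran from 2.26% in R05-4256 to 13.3% in R08-1450. Adjacent entries can be parts of 1 transcript that the assembly split, and this was not tested.

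Both of the fixed genes with an annotation had M23 as the next line. Glyma02g10320, annotated as a heat shock cognate protein of the HSP70 family, a cytosolic chaperone that folds new proteins, was at 20.4 FPKM in R02-6268F and 10.4 FPKM in M23. The other 7 lines lay between 0 and 0.39 FPKM, so R02-6268F and M23 together stood clear of the rest. Glyma03g35250, of the phosphatidylethanolamine-binding family that in Arabidopsis includes the flowering regulators FT and TFL1, was at 6.36 FPKM in R02-6268F, at 2.18 in M23 and at 0 to 0.56 in the other 7. The ratio of R02-6268F to M23 was 1.96 in the first gene and 2.91 in the second.

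**Figure D3:**
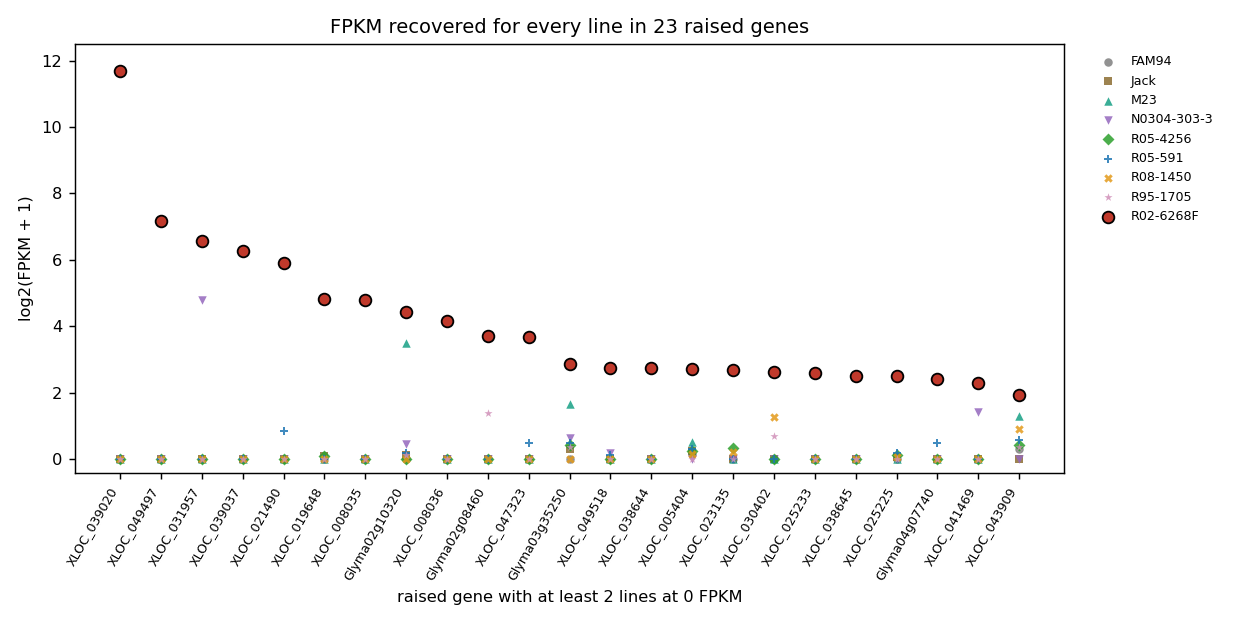
log2(FPKM + 1) of each line (symbols; R02-6268F in red) in the 23 raised genes in which at least 2 lines were at 0 FPKM, ordered by the level in R02-6268F. R02-6268F ranges from 3314 FPKM in XLOC_039020 to 2.84 FPKM in XLOC_043909, and most other lines sit at or near 0; M23 in Glyma02g10320 and N0304-303-3 in XLOC_031957 are the clearest exceptions.

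For the other 146 raised genes the table sets only an upper limit, reached if the lowest line was at 0 FPKM. The highest ratio of R02-6268F to the mean of the other 8 lines that the table allows ran from 3.87 to 74.4, with a median of 7.56, and lay below 9 in 90 genes. For reduced genes the table does not fix how far R02-6268F fell, since any level from 0 to just under the mean is allowed. Distances are therefore given in Z-scores, with the lowest, median and highest of the other 8 lines.

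The 10 annotated raised genes of highest Z-score included 3 transporter genes. The highest Z-score was that of Glyma01g04900, annotated as a low-affinity nitrate transporter of the 1:2 type, at 2.42. The other lines ran from -0.79 through a median of -0.41 to 0.52 in M23, so R02-6268F stood 1.90 above the next line. Its mean was 0.533 FPKM and its level in R02-6268F at most 2.83 FPKM. The sulfate transporter gene Glyma02g16365 was at 2.29, with the other lines from -1.48 through -0.13 to 0.21. At a mean of 1.88 FPKM it was limited to 8.16 FPKM in R02-6268F, or 7.42 times the mean of the other lines. Glyma05g27740, an ABC transporter gene of the multidrug resistance-associated type, which carries conjugates across membranes, was at 2.40, with the others from -0.65 to 0.56.

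The other raised genes of this rank have varied roles. Glyma01g01010 encodes a pectin lyase-like protein of a family that acts on cell wall pectin, and was at 2.41 with the others between -0.85 and 0.31. Glyma02g40740, a sucrose synthase gene whose product splits sucrose for starch and cell wall synthesis, was at 2.27 with the others between -0.97 and 0.58. Glyma05g16850 encodes a DnaJ-domain protein, of the family that assists HSP70 chaperones, and was at 2.26 with R05-4256 next at 0.87. The groups did not overlap in any of these genes, as the rule requires. Glyma03g05370, an NB-ARC and leucine-rich repeat resistance gene of the type that senses pathogen proteins, was at 2.37. Glyma01g03120, an oxygenase gene dependent on 2-oxoglutarate and iron, and Glyma01g38900, of the WD40 family, were both at 2.25. Means were low: 6 of the 10 annotated raised genes of highest Z-score had a mean below 1 FPKM.

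**Figure D4:**
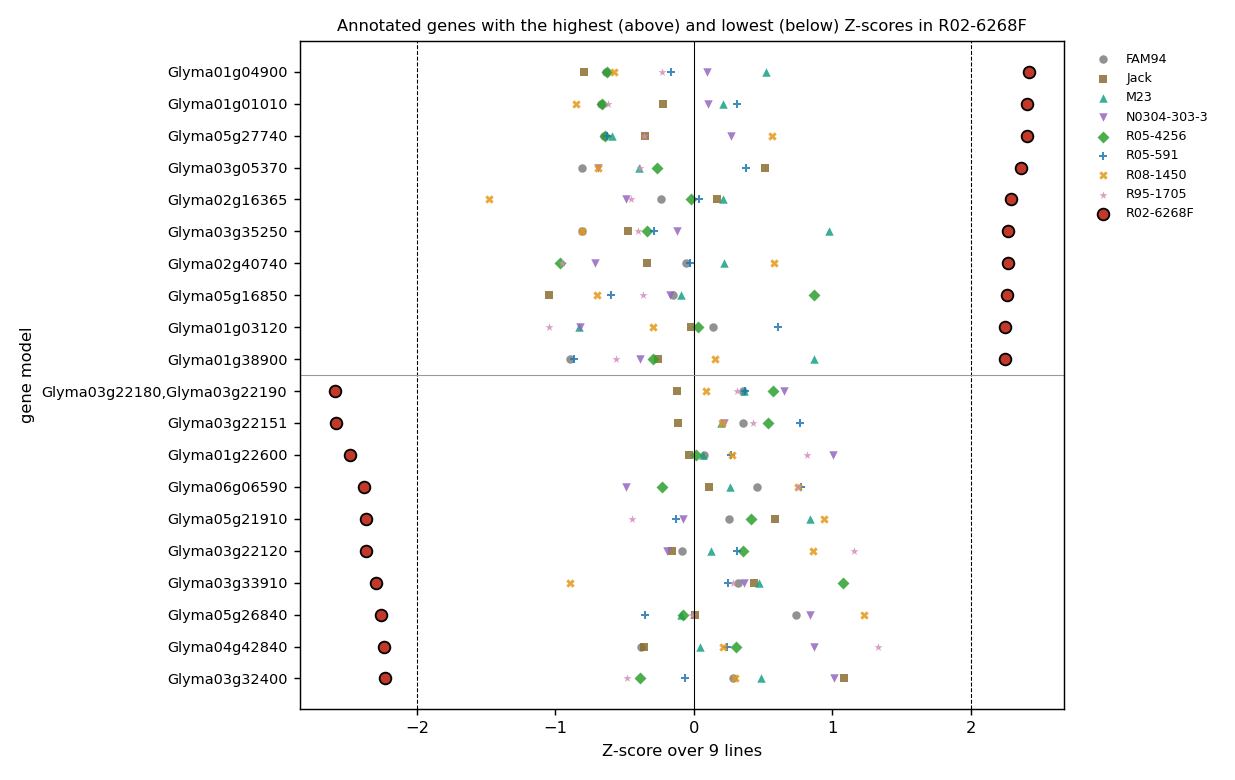
Z-scores over the 9 lines (x axis) of the 10 raised and the 10 reduced annotated genes of largest Z-score in R02-6268F, with R02-6268F in red, the other 8 lines by symbol and dashed lines at the cutoff of 2 and -2. In all 20 genes R02-6268F lies apart from the other 8 lines, which come nearest with M23 at 0.98 in Glyma03g35250 and with R08-1450 at -0.89 in Glyma03g33910.

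Of the lists formed here, that of genes whose annotation words concern transport, sensing or assimilation of nitrate, sulfate, phosphate and metals held the most raised genes. Its 18 genes were found by the words nitrate, sulfate, phosphate transporter, SPX, heavy metal or APR-like. Of these, 6 were raised and none was reduced, and 16 had a Z-score above 0. The words leave out other ion transporters, among them the reduced cation exchanger gene Glyma05g21910, at -2.37. The list's median was 0.63, beside -0.01 over the 1926 annotated genes, of which 34, or 1.77%, were raised and 27 reduced. The list was drawn up with earlier results of these data known, so the count is a description. The annotated genes are mostly genes that passed the cutoff in some line. For the 6 raised members that line was the one described here, so the call itself brought them into the list. The share raised, the 16 genes above 0 and the median of 0.63 all include these members. They cannot show whether the list was shifted. The lists below draw on the same annotated genes. Beside the nitrate and sulfate transporters, the raised members were Glyma03g37210 at 2.16 and Glyma04g07160 at 2.07, which hold the SPX domain that binds inositol pyrophosphates in phosphate sensing. Glyma02g08000, an APR-like gene named after the adenylylsulfate reductases of sulfate assimilation, was at 2.04. Glyma01g42800, a heavy metal ATPase whose Arabidopsis namesake exports copper, was at 2.04 with a mean of 0.08 FPKM.

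The means of the 6 genes over the 9 lines ran from 0.08 FPKM in Glyma01g42800 to 4.61 FPKM in Glyma02g08000, whose level in R02-6268F was at most 24.0 FPKM. In Glyma03g37210 the other lines ran from -1.04 in FAM94 through a median of -0.13 to 0.46 in R05-4256. In Glyma04g07160 they ran from -1.12 in R08-1450 to 0.91 in R95-1705, the narrowest gap of the phosphate-sensing genes. The lowest line was R08-1450 in 3 of the 6 genes, and FAM94, Jack and R95-1705 in 1 each.

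Beside the same 1.77% raised and 1.4% reduced of all annotated genes, the 31 chaperone genes held 2 raised genes, Glyma02g10320 at 2.01 and Glyma05g16850 at 2.26, and no reduced gene, and their median was -0.07. The 118 genes of DNA-binding and chromatin proteins held 1 raised and 2 reduced genes with a median of 0.08. The raised gene was Glyma03g23260 at 2.21, annotated as LHP1, a chromodomain protein that in Arabidopsis takes part in Polycomb silencing, with the other lines from -0.99 to 0.42. The reduced genes were Glyma02g01860, of a winged-helix transcription factor, at -2.07, and Glyma04g01840, of the DNA-bending protein HMGB2, at -2.04. Both lists thus had most of their members inside the cutoff.

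Among abundant members, Glyma04g01840 had the highest mean of the reduced genes, 159 FPKM, and the other lines ran from -0.65 in R05-591 through a median of 0.26 to 1.20 in Jack. Next came Glyma02g08010, annotated as a cap-binding protein, with a mean of 106 FPKM and a Z-score of -2.21 against -0.48 to 1.39. Proteins of this kind bind the cap of messenger RNA at the start of translation. The other reduced genes of high level were XLOC_026679, XLOC_038255 and XLOC_021516, with means of 38.8, 34.3 and 33.4 FPKM and Z-scores of -2.22, -2.21 and -2.05. After XLOC_039020, the raised genes of highest level were XLOC_030050 at 36.2 FPKM, Glyma04g38870 at 33.3, XLOC_048810 at 32.2 and XLOC_018278 at 30.3. Glyma04g38870 encodes a methyltransferase that uses S-adenosylmethionine, and its Z-score of 2.21 lay 1.91 above the next line, FAM94.

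Of the 13 genes with a cell cycle annotation, 2 were reduced and none was raised, beside 1.4% reduced and 1.77% raised over all annotated genes, and 5 had a Z-score above 0, with a median of -0.54. The reduced genes were Glyma06g06590 at -2.39, a homolog of yeast CDT1, which licenses replication origins, and Glyma05g25320 at -2.13, of the cyclin-dependent kinase cell division control 2. In Glyma06g06590 the other 8 lines lay between -0.49 in N0304-303-3 and 0.77 in R05-591, with a mean of 1.71 FPKM. In Glyma05g25320 they lay between -0.63 and 1.29, with a mean of 12.0 FPKM. This list, too, was drawn up with earlier results known.

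The CDT1 homolog was the end of a short stretch of low genes on chromosome 6. XLOC_014878 and XLOC_016117, directly before it, had Z-scores of -1.76 and -1.64, and the 3 genes spanned 20.1 kb from 4694015 to 4714116. In XLOC_016117, R05-4256 was as low as R02-6268F, so that gene did not set R02-6268F apart. The genes on either side were at -0.28 and 0.55. This stretch was chosen after its values were seen.

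The other annotated reduced genes of largest Z-score were of several kinds. Glyma05g21910, a cation exchanger gene of the vacuolar type that moves calcium and other ions against protons, was at -2.37, with the other lines from -0.45 to 0.94. Glyma03g33910, of adenosine kinase, which turns adenosine into AMP, was at -2.29, with R08-1450 next at -0.89 and the other 7 lines between 0.24 and 1.08. Glyma05g26840, a cellulose synthase gene, was at -2.26, with the others from -0.36 to 1.23. In all 3 R02-6268F lay alone, more than 1 below the nearest line. Glyma04g42840, related to the pheophorbide a oxygenase of chlorophyll breakdown, was at -2.24, and Glyma03g32400, of a plasmodesmata-located protein, at -2.23. Glyma01g22600, whose function is not known, was at -2.48 with the other 8 lines from -0.03 to 1.01.

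The lowest Z-scores of all belonged partly to genes with no name here. XLOC_022999 on chromosome 9 (19200974 to 19204951, mean 6.93 FPKM) was at -2.61 with the other 8 lines from -0.04 to 0.66. XLOC_024544, also on chromosome 9 (34126941 to 34132286, mean 6.70 FPKM), was at -2.58 with the others from 0.02 to 0.72. XLOC_043010 on chromosome 16 (3803691 to 3809394, mean 5.0 FPKM) was at -2.59 with the others from -0.22 to 0.65. In these genes the other 8 lines kept within a narrow band and R02-6268F lay far below it. All 3 were picked once their values had been seen.

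The remaining genes at or beyond -2.5 lay together on chromosome 3, in the only run of at least 3 adjacent members. It held 4 adjacent reduced genes over 78.7 kb, from 28100312 to 28179027 in the Williams 82 assembly used by the authors. R02-6268F had no raised run, and in the other lines the number of runs was 0 to 2 in each direction except in R08-1450, which had 11 raised and 9 reduced. In the window of 1 Mb that starts with the run, 4 of 18 genes were reduced, or 22.2%. The share was 0.519% over chromosome 3, which counts the run itself, and 0.293% over all genes. The genes before the run are not in this window.

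The first of the 4 genes encode resistance proteins of the TIR-NBS-LRR class, which in plants sense pathogen effectors and are often found in clusters. Glyma03g22120 (28100312 to 28104905, mean 0.851 FPKM) was at -2.37. The other lines ran from -0.19 in N0304-303-3 through a median of 0.22 to 1.16 in R95-1705. Glyma03g22151 (28137513 to 28142464, mean 2.0 FPKM) was at -2.58, with the others from -0.12 in Jack through 0.28 to 0.77 in R05-591. R02-6268F thus lay 5.44 and 11.0 SDs of the other 8 lines below their mean. This distance is computed from the same Z-score and grows steeply as that nears its limit of 2.67. It therefore adds nothing to the Z-score by which the genes were chosen.

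The next pair of genes showed the same pattern at a higher level. XLOC_005863 (28172990 to 28174144, mean 4.41 FPKM) was at -2.53, with the others from -0.21 in Jack to 0.80 in R05-4256. The last entry merges the gene models Glyma03g22180 and Glyma03g22190, annotated as a protein kinase and a ribosomal protein of the S12/S23 family, from 28174280 to 28179027 with a mean of 7.12 FPKM. It was at -2.59, or 11.8 SDs below the mean of the other lines, which ran from -0.12 in Jack through 0.36 to 0.65 in N0304-303-3. Over the 4 genes the other 8 lines stayed between -0.21 and 1.16, and R02-6268F was between -2.59 and -2.37.

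No gene on either side of the run was reduced. The 5 genes before it, which start with a ribosomal protein S8e gene (Glyma03g21710) and include a cellulose synthase-like gene (Glyma03g21730) and a bHLH gene (Glyma03g21770), were at 0.33, -0.73, 0.61, 0.54 and -0.70. The last of them ends 119 kb before the run. The 5 genes after it were at -1.29, -1.36, -0.41, -0.71 and 1.01. R02-6268F was the lowest line in the first of these, XLOC_007183, and FAM94 was lower in the next, XLOC_005865. Glyma03g05370, the raised resistance gene, lies elsewhere on chromosome 3. Of the 18 genes with a resistance annotation, 1 was raised and 2 were reduced, beside 1.77% and 1.4% of all annotated genes, and their median was -0.25. The 2 reduced genes are the adjacent ones of the run.

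**Figure D5:**
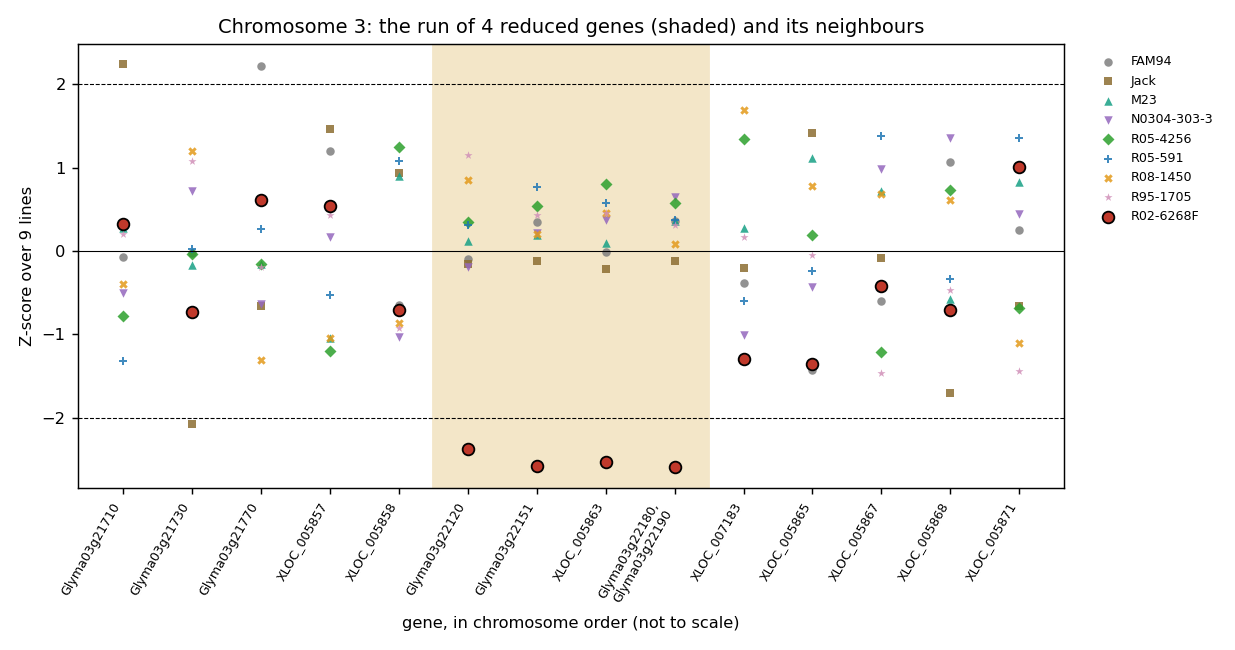
Z-scores of the 9 lines (R02-6268F in red, the other lines by symbol) in the 4 adjacent reduced genes of chromosome 3 (shaded) and the 5 genes on either side, in chromosome order and not to scale; dashed lines mark 2 and -2. R02-6268F lies between -2.59 and -2.37 in the shaded genes while the other 8 lines stay between -0.21 and 1.16, and it lies between -1.36 and 1.01 in the 10 neighbours.

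The members, those of the run included, were spread over all 20 chromosomes. Chromosome 14 had the most raised genes, 18 of 1361, or 1.32%, followed in share by chromosome 10 with 15 (0.820%), chromosome 2 with 15 (0.772%) and chromosome 9 with 12 (0.733%). Chromosome 16 had 3 raised genes. Reduced genes were most numerous on chromosomes 8 and 13, with 10 each. In share they led on chromosome 3 with 8 of 1540, or 0.519%, and 4 of these 8 genes are the run. Chromosome 15 held 1 reduced gene. Of the raised genes 71.6% lay in the outer 25% at either end of a chromosome (95% Wilson interval 64.4 to 77.9), and of the reduced genes 67.7% (58.0 to 76.1), beside 78.2% of all genes. The intervals cover counting error only and treat members as independent, though some are adjacent. In the outer 10% at either end the shares were 37.3% (30.3 to 44.8) and 36.4% (27.6 to 46.2). Of all genes 41.2% lay there, which is inside both intervals.

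A looser grouping of raised genes lay on chromosome 2, in a stretch chosen after its values were seen. In the window of 1 Mb that starts at Glyma02g07861, 6 of 79 genes were raised, or 7.59%. This was the largest number in any such window, but not the largest share. Some windows with fewer genes had higher shares, such as 14.3% (3 of 21 genes) on chromosome 9. The 6 raised genes on chromosome 2 were Glyma02g07861 at 2.11, Glyma02g08000 at 2.04, Glyma02g08115 at 2.03, Glyma02g08460 at 2.49, XLOC_005404 at 2.62 and Glyma02g09000 at 2.03, from 6217174 to 6958217. Glyma02g07861 encodes a pentatricopeptide repeat protein, of the family that processes organelle RNA, and Glyma02g08115 a plasma membrane aquaporin. Glyma02g08010, the reduced cap-binding gene, begins less than 3 kb after the end of the raised APR-like gene Glyma02g08000. The seed maturation gene Glyma02g08400 of this stretch, with a mean of 6478 FPKM, was at -0.53. The 67 genes from XLOC_004195, which lies directly before Glyma02g07861, to Glyma02g09000 had a median Z-score of 0.02, so the stretch as a whole was not shifted. Other lines had members there too: in these 67 genes 14 calls fell in the other 8 lines, and R08-1450 had 4 raised genes.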

How the data were processed

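RNA of whole mid-maturation seeds of 9 soybean lines was sequenced in 1 library per line (TruSeq, paired reads on an Illumina HiSeq). Per the submitters' processing notes, the authors used CASAVA 1.8.2, TopHat 1.4.0, Bowtie 0.12.8, Cufflinks 2.1.1 and Cuffdiff 2.1.1. Reads were aligned to the Williams 82 genome, whose coordinates are used here. The deposited table gives each gene's FPKM averaged by the authors over the 9 lines, with R02-6268F included. It also gives a Z-score for each line, a score the authors computed from log2-transformed FPKM. Total reads per library and counts are not in it, and 0 of its sample columns were left unused.

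Genes are the table's 33779 entries. On the log2(FPKM + 1) scale, which the values fitted, the mean and Z-scores leave only the SD unknown. It was solved where 2 or more lines tied at the lowest Z-score (tolerance 1e-06), and otherwise bounded by placing the lowest line at 0 FPKM. FPKM divides by length, which makes very short spans imprecise. No test was run, since no line has a replicate, and the script was tested on simulated data. Adjacency was by start position, runs needed at least 3 genes, and Wilson intervals are at 95%. Gene names came from the study's tables, matched by locus or mean FPKM, and were available for part of the genome. Gene lists were formed by words in the annotations.

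Named genes are the 10 raised and 10 reduced annotated genes of largest Z-score, the 5 of highest mean in each direction, the chromosome 3 run with 5 genes on either side, genes at 0 FPKM in the 8 other lines, list members past the cutoff, storage and oil body genes and the 3 highest and 3 lowest of the 100 most abundant, genes at the cutoff, and genes the study's text names where located. Others were picked once their values had been seen. The members, lists and regions were chosen with earlier results of these data known. Python 3.11.15, NumPy 2.4.6, pandas 2.3.3, SciPy 1.17.1 and Matplotlib 3.10.9 were used.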

Additional observations from a re-analysis of the deposited data

How the results depend on the processing

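With 1 library in each line the counts rest on the cutoff and on the level of the genes. At a cutoff of 2.2 there were 63 raised and 37 reduced genes and at 1.8 there were 377 and 236. Among genes averaging 1 FPKM or more 93 raised genes were left, and at 10 FPKM or more 14 raised and 29 reduced genes. These differences follow from fewer or more genes being let in. Subtracting each line's median gave 138 raised and 113 reduced genes, and counting a shared span once gave 166 and 97. Z-scores recomputed over 8 lines, without each of the other lines in turn, gave 115 to 167 raised and 66 to 95 reduced genes, of which 98 to 105 and 54 to 64 were among the members. The median mean of raised genes was 1.94 FPKM with a minimum of 0.5 FPKM, and their median span was 2447 bp at a cutoff of 2.2. At a cutoff of 1.5 there were 2 reduced runs and, as at 2, 0 raised runs. In the outer 10% at either end lay 37.3% of raised and 36.4% of reduced genes, beside 41.2% of all genes. The RMS Z-score without R08-1450 and that at a mean of at least 10 FPKM were added after seeing the data. No paired analysis was possible because each line has 1 library. Depth and fragment counts were not available in the table analysed here, so the error of a single FPKM is unknown.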
